A study of Homo sapiens with 11 samples.

Results

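Receptor tyrosine kinases were followed here as a list of 10 genes, AXL, TYRO3, EGFR, ERBB2, ERBB3, MET, EPHA2, IGF1R, INSR and FGFR1, out of 31325 genes measured. The list was given by name, AXL was chosen by its large fall with miR-365a-3p in these data, and all 10 genes had a deposited value on every array. mRNA was measured on 11 Illumina HumanHT-12 v4 BeadChips in 4 groups. The basal-like breast cancer line MDA-MB-231 received miR-365a-3p (n=3) or a control miRNA (n=3), and the ovarian cancer line SKOV3 received miR-365a-3p (n=3) or the control miRNA (n=2). The sample labels give 48 h of treatment in all groups, whereas the description of the series gives 24 h. In the methods the ovarian line is SKOV3.ip1, a derivative of SKOV3, the name in the labels. Both lines are human. Each line is a single established line grown without other cell types, and the control groups were transfected as well, so the comparison is between a miRNA and a control miRNA, not between transfected and untouched cells.

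Receptor tyrosine kinases sit in the plasma membrane, bind a growth factor or a ligand on a neighbouring cell, pair up and phosphorylate tyrosines on their own tails. Adaptor proteins dock on these phosphotyrosines and pass the signal to RAS and ERK, to PI3K and AKT and to phospholipase C, while ubiquitin ligases, phosphatases and sheddases end it. In carcinoma cells AXL is known for its association with invasive, mesenchymal-like behaviour, ERBB2 for gene amplification in breast and ovarian cancers, and EGFR and MET as drivers of growth and motility.

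A miRNA recognizes its targets mainly through its seed, so the transfected sequence is given first, with the seed (bases 2 to 8 from the 5′ end) in capitals. RefSeq lists the same mature sequence at 2 positions of GRCh38.p14, chr16:14309340-14309361 on the plus strand for hsa-miR-365a-3p and chr17:31575478-31575499 on the plus strand for hsa-miR-365b-3p.
hsa-miR-365a-3p: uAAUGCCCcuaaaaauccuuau
hsa-miR-365b-3p: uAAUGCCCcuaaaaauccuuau
Both hairpins thus share 1 seed and 1 mature sequence, which is also that of the mimic in the library of the study. Transcript sequences were not analysed here, so no site of this seed was looked for in the receptor mRNAs.

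All levels below are log2 values after quantile normalization of the 11 arrays, and a difference of 1 is a doubling. In this scale most genes lie in a narrow band near the lowest values. A group mean within the lowest 60% of values, below 7.43, is called near the floor here, because a fall from there could hardly be measured. Levels are compared between groups for the same gene and never between genes. Precision is limited by how few arrays each group has.

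Several facts of the arrays bear on the results. The labels do not say whether arrays of a group came from separate cultures, so p-values measure the spread between these arrays, which may be technical. The upper quartile of the values as deposited was 7.56 to 7.65 on the miR-365a-3p arrays and 7.86 to 7.93 on the control arrays of MDA-MB-231 cells, and 7.67 to 7.80 and 7.98 to 8.04 in SKOV3 cells. The median level of 230 genes of small proteins minus that of 26 genes of large proteins was 3.17 to 3.39 on the miR-365a-3p arrays and 0.62 to 1.18 on the control arrays of MDA-MB-231 cells, and 2.64 to 3.33 and 1.01 to 1.08 in SKOV3 cells. The first miR-365a-3p array of each line lay apart from the other arrays of its group for several receptors, and the deviations of these 2 arrays from their group means correlated with 0.70 over 6853 genes with a mean above 8, against 0.31 for the second and 0.34 for the third arrays. Of 6 markers fixed for MDA-MB-231 cells, 6 were above the floor in the MDA-MB-231 controls, and of 6 fixed for SKOV3 cells, 6 were above the floor in the SKOV3 controls. Most were shared, since 5 of the MDA-MB-231 markers were above the floor in SKOV3 controls (ZEB1 was not) and 4 of the SKOV3 markers in MDA-MB-231 controls (PAX8 and MUC1 were not). The luminal markers ESR1, PGR, CDH1 and GATA3 were all near the floor in MDA-MB-231 controls, whereas ESR1 had a mean of 8.83 in SKOV3 controls, and 5 of 5 markers of blood and endothelium were near the floor in both lines.

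AXL and TYRO3 belong to the TAM family, which also holds MERTK and whose ligands are GAS6 and protein S. AXL had the largest fall of the 10 genes in both lines. In MDA-MB-231 cells it read 12.84, 12.75 and 12.93 on the control arrays and 8.38, 9.20 and 9.54 on the miR-365a-3p arrays. In SKOV3 cells it read 11.59 and 11.59 on the control arrays and 8.18, 9.63 and 9.66 on the miR-365a-3p arrays. The groups did not overlap in either line, and the first miR-365a-3p array was the lowest in both. AXL thus fell by 3.80 in MDA-MB-231 cells, from a mean of 12.84 ± 0.091 (SD, n=3) to 9.04 ± 0.59 (SD, n=3), a 13.9-fold lower level. It fell by 2.44 in SKOV3 cells, from 11.59 ± 0.0016 (SD, n=2) to 9.15 ± 0.84 (SD, n=3), a 5.41-fold lower level. Since AXL was listed for this fall, these values are a description and carry no test. Without the first miR-365a-3p arrays the differences were -3.47 and -1.95. The difference between genes of small and of large proteins given above moved on the same arrays, and its part in the fall of AXL was not tested. In a culture, fewer cells that express a gene and less mRNA per cell cannot be told apart.

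The order of the AXL levels was MDA-MB-231 control, SKOV3 control, SKOV3 with miR-365a-3p and MDA-MB-231 with miR-365a-3p. All control arrays were above all miR-365a-3p arrays, whereas the arrays of the 2 miR-365a-3p groups overlapped. The controls differed by -1.25 (SKOV3 minus MDA-MB-231, SE 0.46), with no overlap, but this did not pass in the limma fit over all arrays (adjusted p = 0.117). In a fit of the control arrays alone it did pass (adjusted p = 0.00053), as it did without the first miR-365a-3p arrays (adjusted p = 0.000159). The fall by which AXL was chosen used these control arrays. The p-values are thus a description, and no conclusion is drawn from them.

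**Figure D1:**
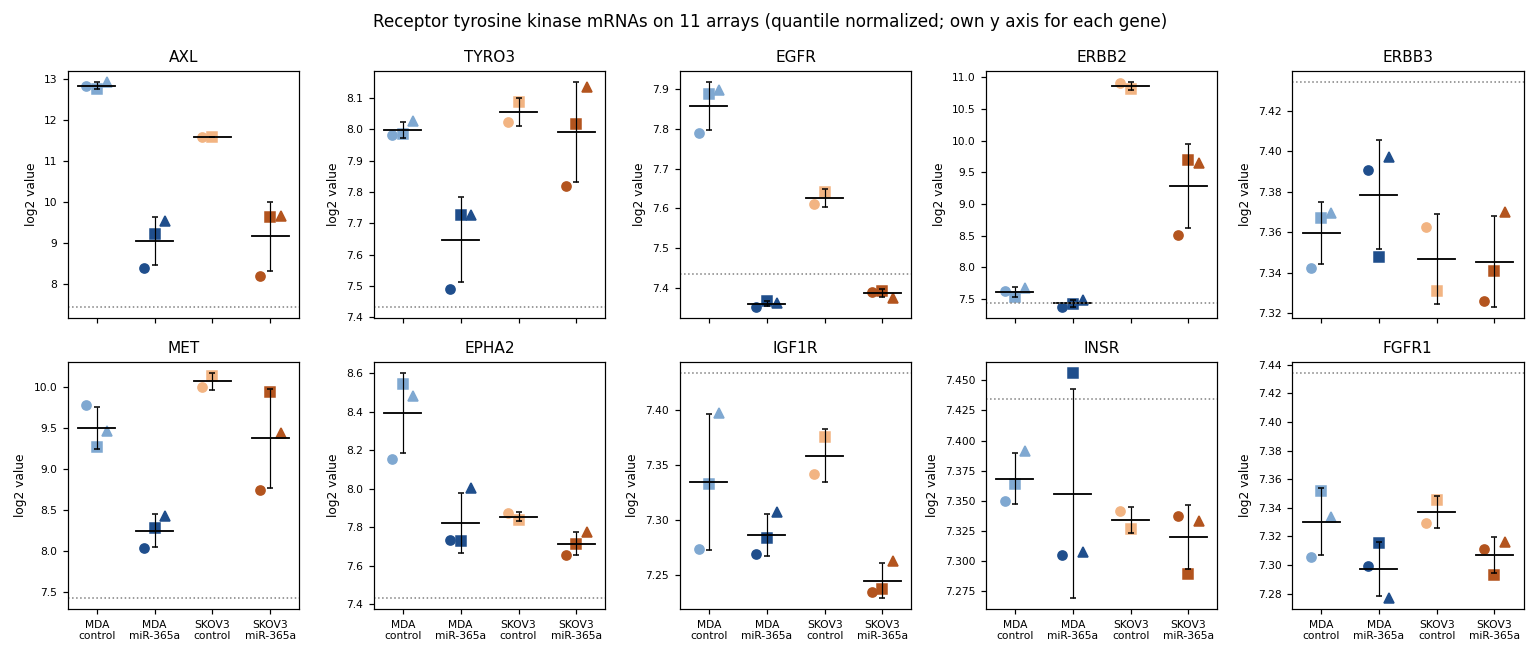
Log2 values of the 10 receptor genes by group. Each point is an array (circle, square and triangle for replicates 1, 2 and 3), the line and bar are the mean and SD, the dotted line is the floor limit of 7.43, and each panel has its own y axis. AXL falls from above 11.5 to below 9.7 in both lines, ERBB2 is high in SKOV3 cells, and ERBB3, IGF1R, INSR and FGFR1 stay near the floor.

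TYRO3 had smaller differences. In MDA-MB-231 cells it read 7.98, 7.99 and 8.03 on the control arrays and 7.49, 7.73 and 7.73 with miR-365a-3p, with no overlap. In SKOV3 cells it read 8.02 and 8.09 on the control arrays and 7.82, 8.02 and 8.14 with miR-365a-3p, so that the groups overlapped. TYRO3 fell in MDA-MB-231 cells (log2 difference -0.35, SE 0.085, limma adjusted p = 0.0151), and the difference was -0.60 on the values as deposited. The call was lost without MDA-MB-231 control array 3 (-0.34, adjusted p = 0.053). In SKOV3 cells the difference was -0.07 (95% CI -0.28 to 0.15, adjusted p = 0.815). The change of TYRO3 did not pass as different between the lines (0.28, SE 0.13, adjusted p = 0.407).

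The rest of the TAM system was also measured. MERTK, which mediates the uptake of dying cells, read 7.83, 7.68 and 7.76 in MDA-MB-231 controls and 7.48, 7.52 and 7.53 with miR-365a-3p. It fell by 0.25 (adjusted p = 0.00104), and was near the floor in SKOV3 cells. GAS6, the ligand of all TAM receptors, read 9.90, 9.53 and 9.96 in MDA-MB-231 controls and 9.11, 9.38 and 9.57 with miR-365a-3p. The GAS6 groups overlapped, and its difference of -0.45 (adjusted p = 0.0339) lost the call under 10 of 21 alternatives. These included the omission of MDA-MB-231 miR-365a-3p array 1 or 2, of MDA-MB-231 control array 1 or 3, of SKOV3 miR-365a-3p array 3 and of either SKOV3 control array, and with single arrays left out the difference ran from -0.58 to -0.32. In the controls GAS6 was higher in MDA-MB-231 than in SKOV3 cells (SKOV3 minus MDA-MB-231 -1.46, adjusted p = 0.000183), the direction in which the AXL means differed. PROS1, which encodes protein S, did not pass in either line, with differences of -0.16 and -0.35. MERTK, GAS6 and PROS1 were picked for description after their values were seen.

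ERBB2, the receptor of the EGFR family without a known ligand, differed most between the lines. It read 10.91 and 10.82 on the SKOV3 control arrays and 7.62, 7.53 and 7.67 on the MDA-MB-231 control arrays. The difference of the means was 3.26 (SE 0.30), a 9.55-fold higher level in SKOV3 controls (limma adjusted p = 0.000109), and the call was kept under all 19 alternatives that could give it. With miR-365a-3p ERBB2 read 8.52, 9.69 and 9.65 in SKOV3 cells, all below both controls but still above every MDA-MB-231 array. In MDA-MB-231 cells it read 7.38, 7.42 and 7.49 with miR-365a-3p, below the 3 controls but at the floor limit.

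ERBB2 fell by 1.57 in SKOV3 cells (SE 0.30, adjusted p = 0.00842), to a 2.98-fold lower level. Without the first miR-365a-3p arrays the difference was -1.19 (adjusted p = 0.000101). The call was lost with SKOV3 cells fitted alone (adjusted p = 0.103), without the first SKOV3 control array (-1.53, adjusted p = 0.067) and without the second (-1.62, adjusted p = 0.0623). In MDA-MB-231 cells the difference was -0.18 (95% CI -0.78 to 0.43, adjusted p = 0.746), and it passed when MDA-MB-231 cells were fitted alone (adjusted p = 0.0452). The fall in SKOV3 minus that in MDA-MB-231 cells was -1.40 (95% CI -2.31 to -0.49) and did not pass (adjusted p = 0.144). Without the first miR-365a-3p arrays this difference was -1.04 and passed (adjusted p = 0.00182). Because ERBB2 started close to the floor in MDA-MB-231 cells, a fall of the SKOV3 size could not have been seen there.

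SKOV3 is known as a line with an amplified ERBB2 region, so the 4 genes on each side of ERBB2 in the RefSeq gene order (GRCh38.p14) were described as well, a choice made after values had been seen. In the SKOV3 controls 4 of the 8 were higher than in MDA-MB-231 controls, namely STARD3, TCAP, PGAP3 and GRB7, where 8.34% of all genes were. STARD3, a cholesterol-binding protein of late endosomes, read 9.75 and 9.79 in SKOV3 controls and 7.72, 7.67 and 7.73 in MDA-MB-231 controls (difference 2.06, adjusted p = 3.71e-06). PGAP3, an enzyme of GPI-anchor remodelling, read 10.18 and 9.96 against 7.73, 7.66 and 7.56 (difference 2.42, adjusted p = 1.58e-06). GRB7, an adaptor that binds ERBB2, read 8.54 and 8.45 against 7.30, 7.31 and 7.30 (difference 1.19, adjusted p = 9.46e-08). TCAP differed by 0.11 close to the floor (adjusted p = 0.0335). C17orf37, now named MIEN1, differed by 0.77 and did not pass (adjusted p = 0.0957), nor did PNMT at 0.34 (adjusted p = 0.0916), and IKZF3 and ZPBP2 were near the floor.

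The same neighbours did not move as a block with miR-365a-3p. In SKOV3 cells STARD3 read 10.17, 9.90 and 9.75 with miR-365a-3p, overlapping its controls, with a difference of 0.17 (95% CI -0.06 to 0.40, adjusted p = 0.4). PGAP3 read 9.87, 10.20 and 10.15, also overlapping its controls, with a difference of 0.004 (95% CI -0.23 to 0.24, adjusted p = 0.993). GRB7 read 7.78, 7.83 and 7.78, below both controls and GRB7 thus fell by 0.70 (SE 0.031, adjusted p = 6.47e-06), which was kept under all 21 alternatives. In the same fit C17orf37 differed by 0.31 (adjusted p = 0.603), PNMT by 0.22 (adjusted p = 0.323) and TCAP by -0.03 (adjusted p = 0.709). None of these passed, and IKZF3 and ZPBP2 stayed near the floor.

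**Figure D2:**
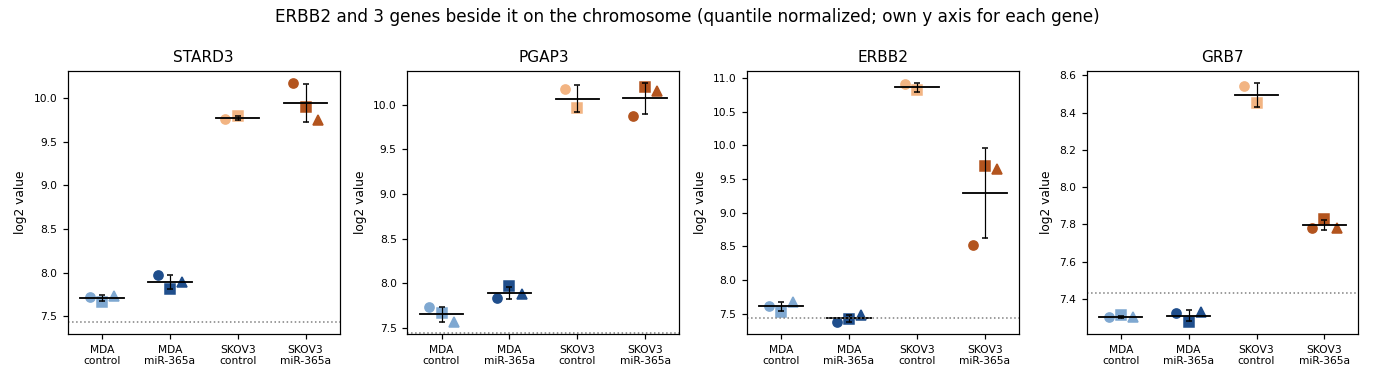
Log2 values of ERBB2 and of STARD3, PGAP3 and GRB7, genes beside it on the chromosome, by group. Points are arrays, lines and bars are mean and SD, the dotted line is the floor limit of 7.43, and each panel has its own y axis. All 4 genes are higher in SKOV3 controls than in MDA-MB-231 controls, and with miR-365a-3p in SKOV3 cells ERBB2 and GRB7 lie below the controls whereas STARD3 and PGAP3 overlap them.

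EGFR, the receptor of EGF, TGF-α and HB-EGF, had small differences with little spread. It read 7.79, 7.89 and 7.90 on the MDA-MB-231 control arrays and 7.35, 7.37 and 7.36 with miR-365a-3p. In SKOV3 cells it read 7.61 and 7.64 on the control arrays and 7.39, 7.39 and 7.38 with miR-365a-3p. The groups did not overlap in either line, and both miR-365a-3p groups ended near the floor, so that the size of the fall is limited from below. EGFR fell by 0.50 in MDA-MB-231 cells (SE 0.029, adjusted p = 1.25e-05) and fell by 0.24 in SKOV3 cells (SE 0.032, adjusted p = 0.00157), and both calls were kept under all 21 alternatives. On the values as deposited the SKOV3 difference was -0.41.

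The EGFR controls also differed, by -0.23 (SKOV3 minus MDA-MB-231, SE 0.032, adjusted p = 0.00117), and this was kept under all 19 alternatives. The change in SKOV3 minus that in MDA-MB-231 cells was 0.26 (SE 0.043, adjusted p = 0.0182), about the size of the gap between the controls, and both miR-365a-3p groups ended near the floor. This call was lost under 7 of 20 alternatives, including the deposited values, median centring, cyclic loess and the omission of either SKOV3 control array (0.24, adjusted p = 0.107 without the first and 0.27, adjusted p = 0.0717 without the second). Without the first miR-365a-3p arrays it was 0.25 (adjusted p = 0.0529).

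ERBB3, the kinase-impaired partner of ERBB2 that binds neuregulins, was near the floor in all groups, with values from 7.33 to 7.40 on the 11 arrays. Its difference was 0.02 in the MDA-MB-231 line and -0.001 in the SKOV3 line, and neither passed (adjusted p = 0.651 and 0.99). A fall from this level could hardly have been measured.

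Among ligands of the EGFR family, TGFA, which encodes TGF-α, read 8.69, 8.75 and 8.67 in MDA-MB-231 controls and 7.71, 7.76 and 7.80 with miR-365a-3p. It read 8.10 and 8.11 in SKOV3 controls and 7.83, 7.69 and 7.78 with miR-365a-3p. TGFA fell in both lines, by 0.95 (SE 0.039, adjusted p = 2.66e-06) and by 0.34 (SE 0.043, adjusted p = 0.0012), to about the same level. HBEGF, which encodes HB-EGF and was picked after its values were seen, fell by 0.69 (adjusted p = 0.000416) in the MDA-MB-231 line, from 9.26, 8.98 and 9.33 to 8.42, 8.52 and 8.56. In SKOV3 controls HBEGF read 7.49 and 7.47, and its difference there was -0.02. Because these controls were close to the floor limit, a fall of the MDA-MB-231 size could not have been seen in SKOV3 cells.

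MET, the receptor of hepatocyte growth factor, read 9.77, 9.26 and 9.46 on the MDA-MB-231 control arrays and 8.04, 8.29 and 8.43 with miR-365a-3p. In SKOV3 cells it read 9.99 and 10.14 on the control arrays and 8.74, 9.94 and 9.44 with miR-365a-3p. The groups did not overlap in either line, although the second SKOV3 miR-365a-3p array lay just below the controls. MET fell by 1.25 in MDA-MB-231 cells (SE 0.27, adjusted p = 0.00864), a 2.37-fold lower level, and kept its call under all 21 alternatives. In SKOV3 cells the difference was -0.69 (95% CI -1.38 to -0.003, adjusted p = 0.2), and without the first miR-365a-3p arrays it was -0.38. The difference between the changes was 0.55 and did not pass (adjusted p = 0.678), nor did that between the controls at 0.57 (adjusted p = 0.325).

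EPHA2, a receptor of ephrin-A ligands on neighbouring cells, read 8.16, 8.54 and 8.48 on the MDA-MB-231 control arrays and 7.73, 7.73 and 8.004 with miR-365a-3p. In SKOV3 cells it read 7.87 and 7.84 on the control arrays and 7.65, 7.71 and 7.78 with miR-365a-3p. EPHA2 fell by 0.57 in MDA-MB-231 cells (SE 0.11, adjusted p = 0.00415), and the difference was -0.88 on the deposited values. In SKOV3 cells the groups were apart but close, with a difference of -0.14 (95% CI -0.41 to 0.13, adjusted p = 0.606). The control level was higher in MDA-MB-231 cells (SKOV3 minus MDA-MB-231 -0.54, SE 0.12, adjusted p = 0.0143). That call was lost on the deposited values, with the control arrays fitted alone (adjusted p = 0.0538) and without the first or the second SKOV3 control array (-0.55 and -0.52, adjusted p = 0.0817 and 0.101). The changes did not pass as different between the lines (0.43, adjusted p = 0.282).

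IGF1R and INSR, the receptors of insulin-like growth factors and insulin, and FGFR1, a receptor of fibroblast growth factors, were near the floor in all 4 groups. IGF1R ranged from 7.27 to 7.40 in MDA-MB-231 cells. In SKOV3 it read 7.34 and 7.38 on the control arrays and 7.23, 7.24 and 7.26 with miR-365a-3p. The SKOV3 difference of -0.11 did not pass (adjusted p = 0.0606), and with a replicate block shared by both lines it did (-0.13, adjusted p = 0.0211). INSR differed by -0.01 and FGFR1 by -0.03 in each line, and none of these passed. An absent change in these genes cannot be told from a level too low to be measured.

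Over the 9 receptors other than AXL, 4 fell in MDA-MB-231 cells (EGFR, EPHA2, MET and TYRO3) where 11.7% of all 31325 genes were called lower, and 0 rose where 14.4% were called higher. In SKOV3 cells 2 fell (EGFR and ERBB2) where 7.11% of all genes were called lower, and 0 rose where 7.25% were called higher. The median differences of the 9 were -0.18 and -0.11, against 0.006 and 0.007 over all genes. Called genes were more frequent at higher levels. Among the 6853 genes with a mean above 8, the share called lower was 26.2% for MDA-MB-231 and 15.3% for SKOV3. Of the 9 receptors only ERBB2 and MET had such a mean, of which MET fell in MDA-MB-231 cells and ERBB2 in SKOV3 cells. The other 3 that fell in MDA-MB-231 cells were dimmer. At an unadjusted p under 0.05 limma also had 0 of the 9 higher in each line, and the adjusted count was 0 under every alternative.

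The split of all genes depended on the scaling. After quantile normalization 3663 genes fell and 4511 rose in MDA-MB-231 cells, whereas on the deposited values 5620 fell and 2275 rose. In SKOV3 cells the numbers were 2228 and 2270 after quantile normalization and 4401 and 1201 on the deposited values. The direction of the 6 receptors above the floor was negative in both lines with each scaling tried, AXL included.

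A two-sided exact permutation test exchanged the treatment within each line and took the mean of both differences, and with 200 arrangements its p cannot go below 0.005. Without adjustment over the 9 tests, the exact p was 0.005 for EGFR and for ERBB2, 0.01 for MET and for EPHA2, and 0.04 for TYRO3. The mean differences were -0.37, -0.88, -0.97, -0.36 and -0.21. Of the genes near the floor, IGF1R had an exact p of 0.015 with a mean difference of -0.08, FGFR1 0.02 with -0.03, ERBB3 0.49 and INSR 0.67.

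Between the lines, the change differed for 1 of the 9 receptors (EGFR), where 2.54% of all genes were called in either direction. In the controls 1 receptor (ERBB2) was higher in SKOV3 cells, where 8.34% of all genes were, and 2 (EGFR and EPHA2) were higher in MDA-MB-231 cells, where 7.76% of all genes were. AXL, tested for its control level alone and on control arrays that its choice had used, did not pass in either direction.

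**Figure D3:**
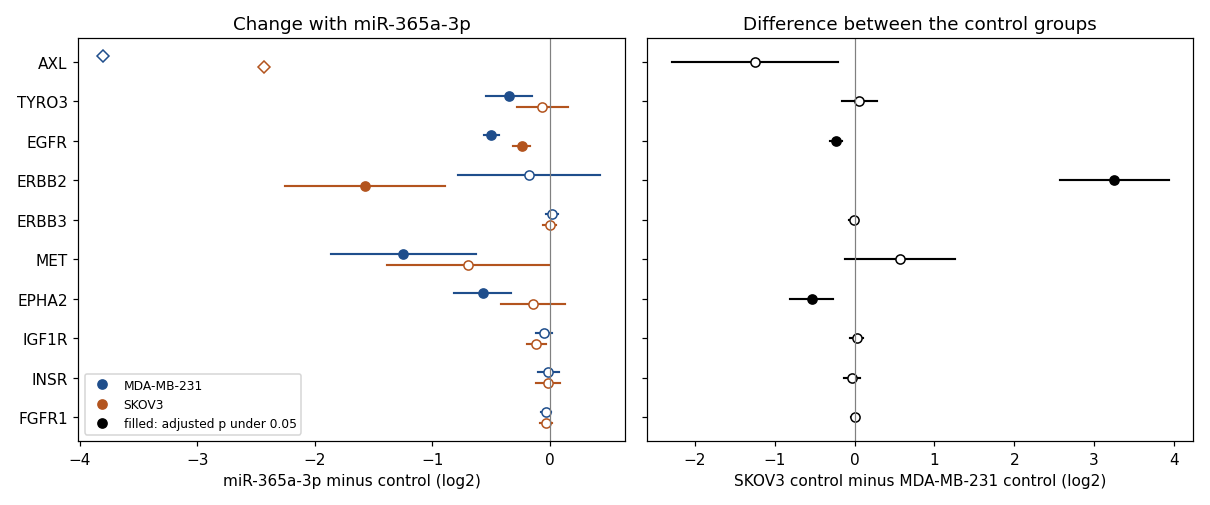
Log2 differences of the 10 receptor genes, miR-365a-3p minus control in each line on the left and SKOV3 control minus MDA-MB-231 control on the right. Points are limma estimates, bars are 95% confidence intervals, filled points have an adjusted p under 0.05, and AXL on the left is drawn as open diamonds with no interval because its change was not tested. AXL lies farthest to the left at -3.80 and -2.44, and ERBB2 stands out on the right at 3.26.

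The other 48 receptor tyrosine kinases that were listed were mostly dim, and 1 of them had a mean above 8. In MDA-MB-231 cells 7 fell and 1 rose, and in SKOV3 cells 5 fell and 0 rose, with median differences of -0.01 in each line. The share that fell was 14.6% in MDA-MB-231, near the 11.7% of all genes, and 10.4% in SKOV3, near 7.11%. EPHB4, a receptor of ephrin-B2, and DDR1, a collagen receptor, fell in both. EPHB4 fell by 0.29 in MDA-MB-231 cells (adjusted p = 0.0142), to near the floor, and fell by 0.48 in SKOV3 cells (adjusted p = 0.00408). DDR1 fell by 0.11 (adjusted p = 0.0064) and fell by 0.17 (adjusted p = 0.00232). The EPHB4 call was lost in MDA-MB-231 cells without their second control array (-0.25, adjusted p = 0.0519) and in SKOV3 cells fitted alone. At an unadjusted p under 0.05, 0 of the 48 were higher in SKOV3 cells, and the SKOV3 count of falls was 2 with that line alone and 9 on the deposited values.

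Of 35 genes listed as ligands, 3 fell (TGFA, HBEGF and GAS6) and 2 rose in MDA-MB-231 cells, and 1 fell (TGFA) and 1 rose in SKOV3 cells. These shares lie below those of all genes, of which 11.7% fell and 14.4% rose in MDA-MB-231, and 7.11% fell and 7.25% rose in SKOV3. Most of the ligands were dim, however. Of the 5 with a mean above 8, 3 fell in MDA-MB-231 and 1 in SKOV3, and 0 rose in either line. Of all genes with such a mean, 26.2% and 15.3% fell. The ligands that rose were NRG1 and NRG3 in MDA-MB-231 cells, by 0.74 and 0.19, and NRG4 in SKOV3 cells, by 0.21 (adjusted p = 0.0465). Each encodes a neuregulin, and the 3 were named after their values were seen. The NRG4 call was lost under 13 of 21 alternatives, among them the deposited values (0.14), both replicate blocks and the omission of the first (0.22, adjusted p = 0.173) or the second SKOV3 control array (0.20, adjusted p = 0.245), of any SKOV3 miR-365a-3p array (0.18 to 0.23), of MDA-MB-231 miR-365a-3p array 1 or 2 and of MDA-MB-231 control array 2 (0.21 each). The median difference of the ligands was 0.002 in MDA-MB-231 and -0.006 in SKOV3. On the deposited values 6 fell in MDA-MB-231 and 3 in SKOV3.

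Of 20 adaptors and direct relays, 9 fell and 1 rose in MDA-MB-231 cells, and 5 fell and 1 rose in SKOV3 cells, with medians of -0.15 and -0.11. Of all genes 11.7% and 7.11% fell, and of those with a mean above 8 26.2% and 15.3%. Among the 8 adaptors and relays with such a mean, 3 fell and 1 rose in MDA-MB-231, and 2 fell and 1 rose in SKOV3. CRKL, SHC1, PLCG1 and SOS1 fell in both lines. CRKL, an adaptor of the CRK family, fell by 1.91 in MDA-MB-231 cells (SE 0.26, adjusted p = 0.000875) and fell by 1.37 in SKOV3 cells (SE 0.29, adjusted p = 0.015). SHC1, which links receptors to GRB2 and SOS, fell by 0.60 in MDA-MB-231 and fell by 0.30 in SKOV3. PLCG1, a phospholipase that docks on activated receptors, fell by 0.48 in MDA-MB-231 and fell by 0.57 in SKOV3. SOS1, the exchange factor that loads RAS with GTP, fell by 0.11 in MDA-MB-231 and fell by 0.10 in SKOV3, close to the floor. The SKOV3 calls of these 4 genes were lost without the first SKOV3 control array and without the second, with differences of -1.34 and -1.41 for CRKL, -0.25 and -0.34 for SHC1, -0.52 and -0.61 for PLCG1 and -0.11 and -0.09 for SOS1 and adjusted p from 0.0595 to 0.224. The call of SHC1 was also lost without SKOV3 miR-365a-3p array 3 (-0.27), and that of SOS1 without array 1 (-0.08) or 3 (-0.10) and with a replicate block shared by both lines (-0.10, adjusted p = 0.0625). The SKOV3 count of falls was thus 1 of 20 with either control array left out, and it was 9 on the deposited values. NCK1, an adaptor that connects receptors to the actin cytoskeleton, rose in both, by 0.45 (adjusted p = 0.000326) and by 0.40 (adjusted p = 0.00218), and its SKOV3 call was lost with an intensity trend (adjusted p = 0.0637).

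Of 27 attenuators and sheddases, 17 fell and 1 rose in MDA-MB-231 cells, and 8 fell and 1 rose in SKOV3 cells, with medians of -0.51 and -0.18. The shares of all genes that fell were 11.7% and 7.11%, and those of genes with a mean above 8, which 11 of the 27 had, were 26.2% and 15.3%. Among these 11, 8 fell and 1 rose in MDA-MB-231, and 5 fell and 1 rose in SKOV3. In both lines 7 of the 27 fell. The list was chosen with earlier results of these data known and was not tested as a set, so these counts are a description. PTPN2, a tyrosine phosphatase named after its values were seen, rose by 0.52 in MDA-MB-231 (adjusted p = 6.72e-05) and by 0.28 in SKOV3 (adjusted p = 0.00533). Its SKOV3 difference was -0.003 on the deposited values and 0.03 after median centring, and the call was lost there, with an intensity trend (adjusted p = 0.0525) and without the second SKOV3 control array (0.26, adjusted p = 0.06). PTPRF, a receptor-type tyrosine phosphatase, fell by 2.02 in MDA-MB-231 cells (SE 0.28, adjusted p = 0.000841) and fell by 2.18 in SKOV3 cells (SE 0.31, adjusted p = 0.00205), a call lost with that line fitted alone (adjusted p = 0.0527). SPRED1 and SPRED2, which restrain RAS signalling to ERK, differed by -1.83 and -1.28 in MDA-MB-231 cells, and by -0.78 and -1.06 in SKOV3 cells, with all 4 differences called. STAM, which sorts ubiquitinated receptors in endosomes, fell by 0.87 in MDA-MB-231 and fell by 0.40 in SKOV3. CBL, the ubiquitin ligase that marks activated receptors for degradation, fell by 0.40 (adjusted p = 3.99e-05) and fell by 0.53 (adjusted p = 3.67e-05), to near the floor in both lines. ADAM10, a metalloproteinase that sheds receptors and ligands, fell by 0.70 in MDA-MB-231 and fell by 0.51 in SKOV3. ERRFI1, a feedback inhibitor that binds EGFR and was picked after its values were seen, fell by 1.35 in MDA-MB-231 cells (adjusted p = 0.00201), and its difference in SKOV3 cells was -0.21. The SKOV3 calls of SPRED1, STAM and ADAM10 were lost without the second SKOV3 control array (-0.74, -0.31 and -0.34). The SKOV3 count of falls was then 4 of 27, it was 3 with that line alone, and it was 15 on the deposited values and after median centring. The list thus held genes that dampen receptors and genes that release their ligands, and the difference between genes of small and of large proteins moved on the same arrays, whose part in these falls was not tested.

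**Figure D4:**
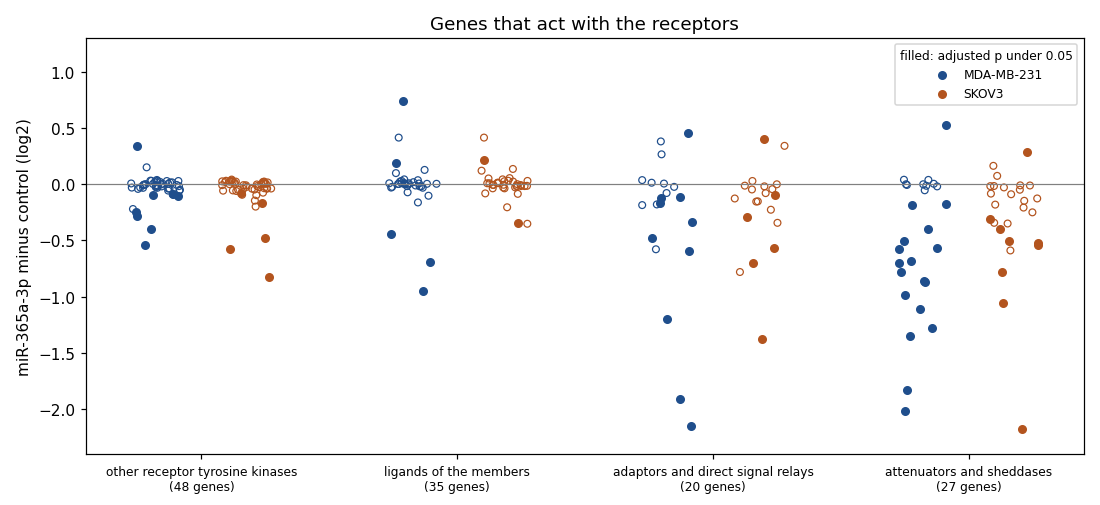
Log2 differences, miR-365a-3p minus control, of the genes of 4 lists that act with the receptors, for each line. Each point is a gene, spread sideways at random within its list, and filled points have an adjusted p under 0.05. Filled points below 0 are most numerous among the attenuators and sheddases, 17 of 27 genes for MDA-MB-231 and 8 for SKOV3. The lists were chosen with earlier results of these data known.

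The genes whose values over the 11 arrays were most like those of AXL were found by the root mean square difference after each gene was centred on its own mean. They were DNMT1, the maintenance DNA methyltransferase (0.29), PABPC1, the cytoplasmic poly(A)-binding protein (0.29), the deposited symbols LOC341315 (0.30) and LOC100134134 (0.35), and SLC7A5, an amino acid transporter (0.45). For comparison, AXL itself varied by 1.72 around its mean. DNMT1 had means of 12.31 in MDA-MB-231 controls and 8.87 with miR-365a-3p, and of 11.26 and 9.25 in SKOV3. PABPC1 had means of 12.71 and 9.29 in MDA-MB-231 and of 12.08 and 9.51 in SKOV3.

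For ERBB2, which varied by 1.34, the nearest genes by the same measure were CGNL1, a tight junction protein (0.25), CYP1B1, a cytochrome P450 (0.32), HOXB2, a homeobox factor (0.39), CENPB, a centromere protein (0.39), and ERAP2, an aminopeptidase of antigen processing (0.40). CGNL1 had means of 7.37 and 7.32 in MDA-MB-231 cells, both near the floor, and of 10.46 in SKOV3 controls and 9.34 ± 1.10 (SD, n=3) in SKOV3 cells with miR-365a-3p. CYP1B1 had means of 8.10 and 8.08 in MDA-MB-231 cells, and of 11.72 and 10.50 ± 0.98 (SD, n=3) in SKOV3 cells. All 5 were higher in SKOV3 than in MDA-MB-231 controls, which follows from their choice by likeness to ERBB2 on these arrays. In SKOV3 the CENPB arrays with miR-365a-3p ran from 10.44 to 11.83 and overlapped their controls at 11.68 and 11.83, and the means of HOXB2 went from 10.24 to 9.56 and those of ERAP2 from 9.90 to 9.26. The measure has no test.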

How the data were processed

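The labels gave the group of every array, and all 11 arrays were used. The authors amplified RNA to biotin-labelled cRNA, quantile normalized the arrays with lumi (named without a version in the submitters' processing notes), per the methods, and deposited values that were taken as log2, 1 for each gene symbol on each array. Whether the scale is log2 or a variance-stabilizing transformation, whether background was subtracted, and how the probes of a gene were combined are not given in the sources used here. Nothing can thus be said of disagreement between probes of a receptor, and a fold is exact only if the scale is log2.

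The deposited columns did not share a distribution, which the stated quantile normalization would give, so they were quantile normalized here with limma 3.58.1 in R 4.3.3. A model with 4 group means was fitted to all 31325 genes (lmFit, eBayes), with contrasts for the treatment in each line, the difference of both and the controls. A gene was called where its Benjamini-Hochberg adjusted p, taken across the whole table, was under 0.05. The fit was run on simulated data with 200 changed genes, independent noise and no difference between the lines. These settings differ from those of the real arrays, so the simulation does not show how reliable the calls here are. Tables were made with pandas 2.3.3 and NumPy 2.4.6 in Python 3.11.15. The receptors and the gene lists were chosen with earlier results of these data known, and no list was tested as a set. Named are all 10 receptors, up to 6 genes of each list with the largest change among those called in both lines with the same sign, and the 5 genes nearest to AXL and to ERBB2. Genes named beyond this rule are marked in the text. The genes of small and large proteins were defined by patterns of gene symbols. RefSeq supplied names, gene order and the miRNA sequences.

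Alternatives were the deposited values, median centring, cyclic loess, each line alone, replicate blocks, an intensity trend with robust moderation, array weights, a filter on dim genes, and each array left out in turn. Leaving out the first miR-365a-3p array of both lines was added after the data were seen. Same-numbered control and miR-365a-3p arrays had correlations of their deviations from -0.12 to 0.23, and so few arrays cannot show whether the numbers pair them. Same-numbered miR-365a-3p arrays of both lines correlated (0.70, 0.31 and 0.34). Deviations within a group are tied to each other by its mean, so the later values are not independent of the first. Arrays with different numbers were not compared. The labels state no pairing, and blocks shared by both lines and within each line were among the alternatives.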

Additional observations from a re-analysis of the deposited data

Results flagged for a closer look

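The change with miR-365a-3p differed between the lines in the limma interaction test for 5 of the genes described. It was 0.26 for EGFR (adjusted p = 0.0182), 0.60 for TGFA (adjusted p = 0.00138), 1.05 for SPRED1 (adjusted p = 0.03) and 0.68 for HBEGF (adjusted p = 0.0267), as the change in SKOV3 minus that in MDA-MB-231 cells, with the larger fall in MDA-MB-231 cells. For GRB7 it was -0.70 (adjusted p = 0.000111), with the fall in SKOV3 cells and levels near the floor in MDA-MB-231 cells. The EGFR levels with miR-365a-3p were near the floor in both lines, and the HBEGF controls of SKOV3 cells were close to the floor limit. The falls of EGFR and HBEGF in SKOV3 cells were thus limited from below. The GRB7 call was kept under all 20 alternatives, the TGFA call under 19 of 20 and the EGFR call under 13 of 20. Those of SPRED1 and HBEGF were kept under 12 of 20 each. SPRED1 and HBEGF both lost the call without MDA-MB-231 miR-365a-3p array 1 or 2, SKOV3 miR-365a-3p array 3 or either SKOV3 control array. It was further lost without MDA-MB-231 control array 3 for SPRED1 and control array 1 for HBEGF. With a replicate block shared by both lines the SPRED1 value was 1.06 (adjusted p = 0.0857), and with a block within each line SPRED1 (adjusted p = 0.13) and HBEGF (adjusted p = 0.18) lost the call, as HBEGF did without the first miR-365a-3p arrays of both lines (0.63). No group had more than 3 arrays, so no single array was tested as an outlier.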

How the results depend on the processing

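The falls of EGFR, MET and EPHA2 in MDA-MB-231 cells, the fall of EGFR in SKOV3 cells and the control differences of EGFR and ERBB2 kept direction and call under all alternatives that could give them. In SKOV3 cells 2 receptors fell, and the count was 1 with each line alone, 4 with array weights and 1 to 3 with single arrays left out. In MDA-MB-231 cells 4 fell (3 to 5 with single arrays left out). The change differed between lines for 1 receptor, but for 0 on the deposited values, after median centring, after cyclic loess and with a replicate block within each line, for 2 with an intensity trend (EGFR and ERBB2) and without the first miR-365a-3p arrays (ERBB2 and TYRO3), for 3 with array weights, and for 0 to 2 with single arrays left out. In the controls 1 receptor was higher in SKOV3 cells, and 2 with array weights. In MDA-MB-231 controls 2 were higher, 1 on the deposited values and up to 3 with single arrays left out. These control counts included AXL. In limma AXL passed with an intensity trend (adjusted p = 0.0274), with array weights (adjusted p = 0.0104) and without SKOV3 miR-365a-3p array 1 (adjusted p = 0.0164). The fall by which AXL was chosen used these control arrays, so no conclusion is drawn from these passes. The cause of the shifts in these counts was not tested. Whether arrays with the same number were paired is not in the labels, and the correlations between them cannot decide it. With the replicate block within each line, the EGFR difference of the changes was 0.2637 (adjusted p = 0.1411), and with a block shared by both lines it was 0.2534 (adjusted p = 0.04171). The shared block ended the calls of SOS1 and NRG4 in SKOV3 cells and of the SPRED1 difference between lines. It brought IGF1R in SKOV3 cells to a call, and TCAP and PNMT were not run under it. Counts in the lists moved further. In MDA-MB-231 cells 10 adaptors fell and 2 rose (9 and 1 in the main fit), 16 attenuators fell (17) and 3 ligands rose (2). In SKOV3 cells 9 attenuators fell (8) and 4 other receptors fell (5). Signs turned for small, uncalled differences. TYRO3 in SKOV3 cells was 0.0229 with array weights and 0.0206 without the first miR-365a-3p arrays (-0.138 to 0.0206 with single arrays left out). ERBB3 was -0.0118 in MDA-MB-231 cells on the deposited values, and in SKOV3 cells 0.0126 after median centring, 0.0129 with array weights and 0.0084 without the first arrays (-0.017 to 0.0143), with 0.0083 for the difference of the changes with array weights and -0.0284 to 0.0028 for the controls. INSR in MDA-MB-231 cells was 0.0191 with array weights and 0.0132 without the first arrays (-0.0624 to 0.0132), in SKOV3 cells 0.0094 after median centring (-0.023 to 0.0009), and its difference of the changes was 0.0149 on the deposited values, 0.0201 after median centring, 0.0052 after cyclic loess and 0.0001 with the shared replicate block (-0.0275 to 0.048). The difference of the changes of FGFR1 was -0.006 on the deposited values, -0.0007 after median centring and -0.002 with the block within each line (-0.0081 to 0.0152), its control difference ranged from -0.0055 to 0.0178 and that of IGF1R from -0.0069 to 0.0551. Cyclic loess and the block within each line give no control difference, the lines fitted alone give no difference of the changes, and the filter on dim genes removed ERBB3, IGF1R, INSR and FGFR1. In the 4 lists the SKOV3 counts of falls were 9, 3, 9 and 15 on the deposited values against 5, 1, 5 and 8 for other receptors, ligands, adaptors and attenuators, that of ligands in MDA-MB-231 cells was 6 against 3, and that of adaptors in SKOV3 cells was 1 with either SKOV3 control array left out. With 1 SKOV3 control array left, that array is assumed to vary like the other groups.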
